A study of Mus musculus with 12 samples.

Results

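The comparison described here set mouse peritoneal macrophages treated with Remodelin hydrobromide alone against untreated cells of the same kind, with no interferon in either group. Its members are the 3 Remodelin and 3 untreated control libraries, 6 of the 12 libraries sequenced, and the 13474 of 55586 listed genes that passed a filter on low counts. The cells were kept in RPMI medium with fetal bovine serum and antibiotics, and RNA was extracted with Trizol. The other 6 libraries, 3 with interferon gamma (IFN-γ) and 3 with Remodelin and IFN-γ, shared 1 statistical fit with these and were used to ask whether the Remodelin difference itself changed with IFN-γ. No dose, time, mouse strain, sex or age stands in the labels, and whether replicate libraries stem from different mice or dishes is not stated there. The p-values thus measure only how far these libraries spread, which may be technical.

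Remodelin is a small molecule known as an inhibitor of NAT10, the acetyltransferase that writes N4-acetylcytidine into messenger, transfer and ribosomal RNA, and the title of the series concerns the loss of that mark from macrophages in hepatocellular carcinoma. Peritoneal macrophages are phagocytes of the abdominal cavity that share the space with B cells, mast cells and the mesothelial sheet that lines the cavity. Several programmes named below respond to the supply of sterols or amino acids. SREBP2 switches on cholesterol synthesis genes when membrane sterol is low, and ATF4, the effector of the integrated stress response, switches on genes for amino acid synthesis and import when amino acids are short or translation initiation is restrained.

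Totals ran from 16084882 to 19418665 counts in the 6 libraries. In CPM (counts scaled to a common library total), 3 counts were worth 0.152 to 0.192, a limit that covers counting error only. Control 1 and Remodelin 1 stood apart from their own groups. On the first principal component, with 40.4% of the variance, control 1 (16.2) lay on the side of Remodelin 2 and 3 (23.7 and 37.5), and Remodelin 1 (-21.8) on the side of control 2 and 3 (-22.7 and -33.0). The second component, with 26.0%, held all 3 control libraries below 0 (-27.2 to -9.86) and all 3 Remodelin libraries above it (4.76 to 38.3). The deviation of a library from the mean of the 6 rose with transcript length in control 1 (Spearman 0.485 across genes), Remodelin 2 (0.406) and Remodelin 3 (0.295), and fell with it in control 2 (-0.224), control 3 (-0.368) and Remodelin 1 (-0.507). Values without both control 1 and Remodelin 1 are therefore given beside most of the gene lists. With GC content the same correlation was -0.096, 0.368 and 0.383 in control 1 to 3, and 0.066, -0.140 and -0.549 in Remodelin 1 to 3. In RNA from a whole culture, fewer cells of a type and less RNA per cell cannot be told apart.

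**Figure D1:**
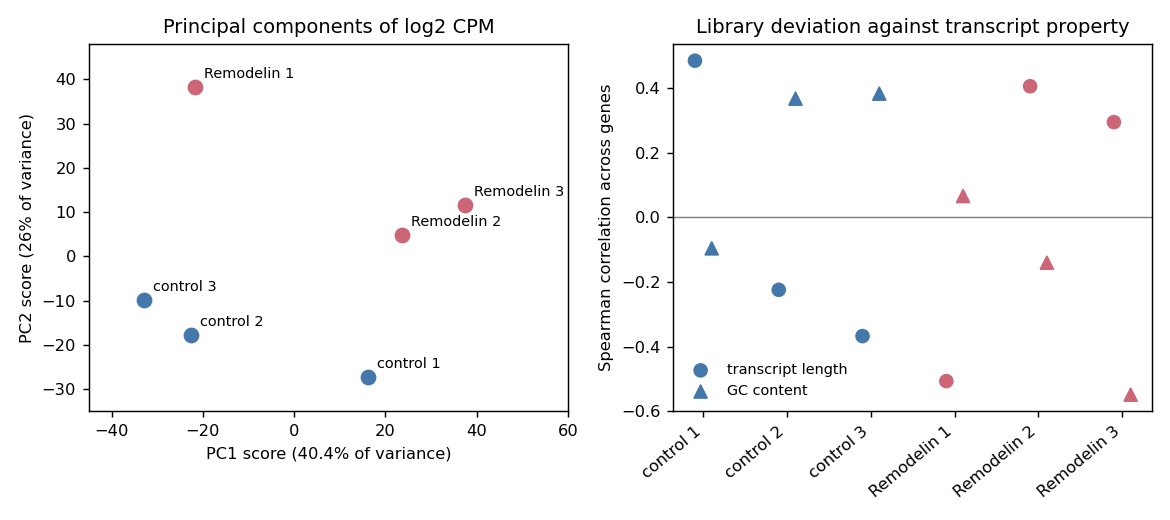
Left, principal component scores of log2 CPM for the 3 control (blue) and 3 Remodelin (red) libraries; right, Spearman correlation across genes between each library's deviation from the 6-library mean and transcript length (circles) or GC content (triangles). Control 1 and Remodelin 1 lie with the other group on the first component and carry the length trend of the other group.

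Of the 13474 genes tested, 114 passed the threshold (edgeR quasi-likelihood test, Benjamini-Hochberg adjusted p under 0.05; 0.846% of genes), and these are the genes called below. Of these, 26 were higher (0.193% of genes) and 88 lower (0.653%) with Remodelin, so 77.2% of calls were lower. The 6 CPM values did not overlap between the groups for any of the 114, against 16.4% of all genes tested. An unadjusted p under 0.05 in the same edgeR test was reached by 1708 genes, or 12.7%. List counts at that p given below are to be read against this share. The absolute log2 fold change of the calls had a median of 1.06, and the median log2 fold change of all genes tested was 0.01. The calls were made near the limit of what 3 against 3 libraries resolve: leaving out control 2 reduced them to 20, control 3 to 53, Remodelin 2 to 38 and Remodelin 3 to 36. A fit of the 6 libraries alone called 22 genes, 21 of them among the 114. Without both control 1 and Remodelin 1 the count was 1853 (13.6% of genes), with 107 of the 114 among them. All 114 kept their direction, which was all but fixed in advance because their groups do not overlap. The 2 libraries left out were picked from these same values, so this fit is not an independent check. List counts without both are to be read against its 13.6%. The share of calls that were lower moved with the setting, to 66.7% of 189 calls after removal of the trend with GC content, 58.6% of 408 (3.03% of genes) after removal of GC and length trends, 65.3% of 242 (1.73% of genes) with DESeq2, 50.2% of 283 with no filter and 44.7% of the 1853. Transcripts of the genes called higher had a median length of 1916 bases, those called lower 2581 bases, and those of all genes tested 3181 bases. Their median GC content was 49.77% for genes called higher, 54.85% for those called lower and 49.82% for all genes tested. After removal of GC and length trends, 110 of the 114 were still called. The part of GC content in the calls was not tested.

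A set of 16 genes kept their call in each of the 6 fits without 1 library, 15 of which were also called in the fit of the 6 libraries alone. Of these 16, 13 were lower and 3 higher, and they ranged from lipid enzymes and channels to secreted and matrix proteins. Upk3b, a uroplakin found on mesothelium, stood at 39.99, 59.4 and 40.1 CPM in control 1 to 3 and at 11.5, 11.4 and 11.2 CPM in Remodelin 1 to 3 (log2 fold change -2.03 ± 0.19 SE, adjusted p = 8.22e-05). The 3 treated libraries were almost identical and far below every control library. Txnip, which binds thioredoxin and restrains glucose uptake, was at 156, 146 and 178 CPM against 78.2, 78.5 and 70.8 CPM (-1.08 ± 0.13, adjusted p = 0.000665). Its libraries lay in 2 tight groups with a wide gap between them.

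Among the secreted and matrix products in this set of 16, the calcification inhibitor Mgp was at 13.7, 16.8 and 18.9 CPM in control and 5.89, 4.21 and 4.57 CPM with Remodelin (-1.75 ± 0.20, adjusted p = 0.000502). The chitinase-like lectin gene Chil1 was at 8.66, 9.77 and 13.8 CPM against 2.75, 0.980 and 1.10 CPM (-2.75 ± 0.36, adjusted p = 0.000898), with Remodelin 1 the least reduced. The serine protease inhibitor gene Serpina3g was at 10.8, 16.3 and 17.8 CPM against 5.77, 2.42 and 3.41 CPM (-1.96 ± 0.28, adjusted p = 0.00235). For Chil1 and Serpina3g the control library nearest to the treated ones was control 1 and the treated library nearest to control was Remodelin 1, and without both the differences were -3.50 and -2.55. The secreted kinase gene Pkdcc was at 103, 129 and 143 CPM against 65.6, 63.8 and 57.5 CPM (-1.004 ± 0.15, adjusted p = 0.00279). Gas1, a co-receptor of Hedgehog ligands, was at 42.1, 39.1 and 38.9 CPM against 14.6, 18.2 and 20.1 CPM (-1.18 ± 0.16, adjusted p = 0.00147). In both, the 3 Remodelin libraries lay well below the lowest control library.

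Channels and transporters made up a further group. Kcnj8, the pore of an ATP-sensitive potassium channel, was at 4.40, 5.21 and 5.32 CPM in control and 1.09, 0.923 and 0.462 CPM with Remodelin (-2.59 ± 0.33, adjusted p = 0.000665). The water channel gene Aqp1 was at 5.21, 6.03 and 3.91 CPM against 1.22, 1.4995 and 0.520 CPM (-2.22 ± 0.35, adjusted p = 0.00627), and Spns2, the exporter of sphingosine-1-phosphate, at 9.42, 12.2 and 10.8 CPM against 3.91, 4.50 and 3.70 CPM (-1.42 ± 0.22, adjusted p = 0.00438). Clca3a2, of the calcium-activated chloride channel regulator family, was at 9.31, 5.76 and 6.30 CPM against 1.09, 2.02 and 1.68 CPM (-2.15 ± 0.26, adjusted p = 0.000665). Its neighbour in the family, Clca3a1, fell as well: it had 79 reads over the 3 control libraries and 2 over the 3 Remodelin libraries, a ratio of 35.1 with a 95% counting interval of 9.39 to 295. The call of Clca3a1 was lost without Remodelin 2 (adjusted p = 0.0512) or Remodelin 3 (adjusted p = 0.0544). The 2 Clca genes are close relatives, and reads could be divided between them.

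**Figure D2:**
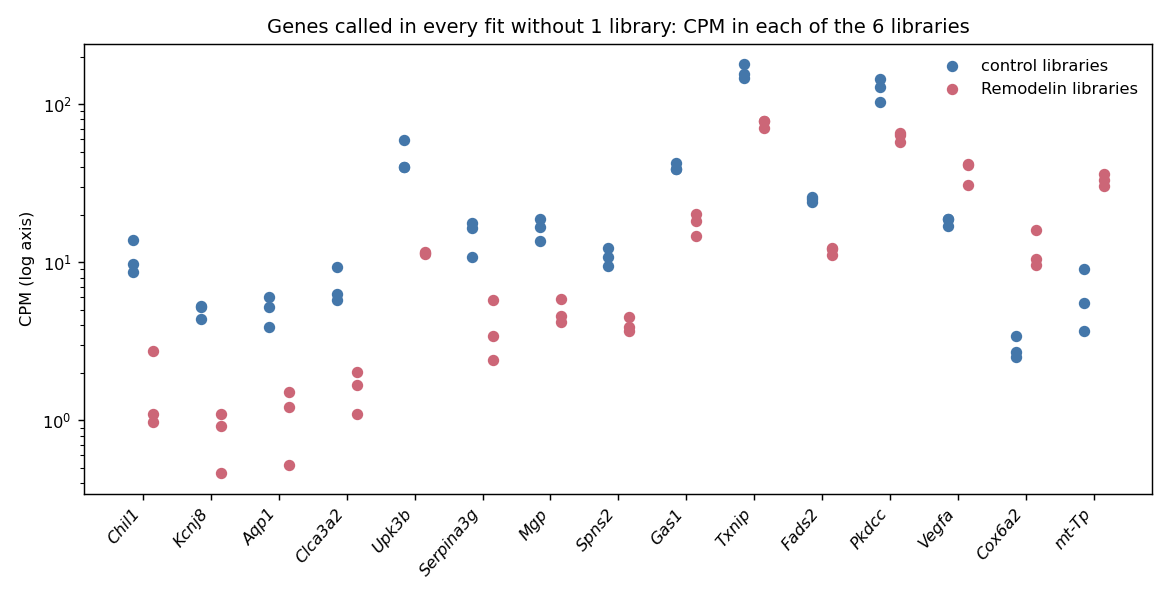
CPM (log axis) in each of the 3 control (blue) and 3 Remodelin (red) libraries for 15 of the 16 genes called in every fit without 1 library, ordered by fold change. The groups do not overlap in any of the 15; Upk3b sits at 11.2 to 11.5 CPM in all 3 Remodelin libraries.

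Cholesterol synthesis genes were the list with the most calls. Of 26 tested, 6 fell and 0 rose, 25 had a negative sign, and 18 had groups that did not overlap, against 16.4% of all genes tested. The median log2 fold change was -0.60, and -0.52 without both control 1 and Remodelin 1. The median deviation of the list from the 6-library mean was 0.29 to 0.34 in the control libraries and -0.36 to -0.23 in the Remodelin libraries, so here control 1 and Remodelin 1 lay with their own groups. The falls named here lay at separate steps of the pathway. Acat2, which joins acetyl-CoA units, was at 25.1, 36.7 and 36.5 CPM in control and 20.1, 13.1 and 12.9 CPM with Remodelin (-1.09 ± 0.19, adjusted p = 0.0121). Mvd, which makes isopentenyl diphosphate, was at 81.2, 99.0 and 96.2 CPM against 66.0, 52.1 and 45.4 CPM (-0.76 ± 0.16, adjusted p = 0.0328). In both, Remodelin 1 was the treated library nearest to control. Lss, which closes squalene epoxide into lanosterol, was at 35.5, 33.2 and 33.9 CPM against 16.2, 24.5 and 19.997 CPM (-0.76 ± 0.17, adjusted p = 0.0458). Cyp51, the lanosterol demethylase, was at 101, 101 and 96.6 CPM against 56.9, 56.6 and 65.1 CPM (-0.74 ± 0.15, adjusted p = 0.0236).

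The sterol sensor Insig1, which holds SREBP in the endoplasmic reticulum and is itself an SREBP target, was at 75.2, 62.9 and 77.4 CPM in control and 43.6, 45.9 and 42.9 CPM with Remodelin (-0.70 ± 0.14, adjusted p = 0.0252). Of the other members, squalene epoxidase Sqle (-0.63 ± 0.16, adjusted p = 0.0707), squalene synthase Fdft1 (-0.53 ± 0.14, adjusted p = 0.0878) and the transcription factor gene Srebf2 (-0.50 ± 0.16, adjusted p = 0.187) had groups that did not overlap but were not called. The list was not uniform. Hmgcs1, which makes HMG-CoA, was at 47.5, 32.5 and 27.6 CPM against 21.1, 29.9 and 32.7 CPM (-0.36 ± 0.20, adjusted p = 0.465). Its extreme values were those of control 1 and Remodelin 1, and the remaining libraries overlapped. Leaving out any 1 library ended the call of Cyp51 (adjusted p = 0.0518 to 0.111) and Lss (0.0512 to 0.146). Control 2, control 3, Remodelin 2 and Remodelin 3 each ended the calls of Acat2 (0.0568 to 0.0842), Mvd (0.121 to 0.167) and Insig1 (0.063 to 0.121), and control 1 also that of Insig1 (0.0588).

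Fatty acid and phospholipid genes showed single calls. Fads2, the desaturase that starts the synthesis of long polyunsaturated fatty acids, was at 25.9, 23.999 and 25.2 CPM in control and 11.1, 12.2 and 12.4 CPM with Remodelin (-1.07 ± 0.18, adjusted p = 0.0102), and it was the 1 gene called of 20 tested for fatty acid synthesis. Fasn (-0.66 ± 0.24, adjusted p = 0.251) and the regulator Srebf1 (-0.54 ± 0.19, adjusted p = 0.207) were not called. The list median was -0.29 and moved to -0.11 without both control 1 and Remodelin 1. Pcyt2, of phosphatidylethanolamine synthesis, was at 46.1, 59.5 and 50.2 CPM against 33.8, 32.2 and 26.5 CPM (-0.75 ± 0.16, adjusted p = 0.0322). Aacs, which activates acetoacetate for lipid synthesis, was at 41.9, 48.3 and 37.6 CPM against 25.9, 29.0 and 25.1 CPM (-0.68 ± 0.15, adjusted p = 0.0446). Both were lower in every Remodelin library than in any control library. Mfsd2a, the transporter of lysophospholipids with long polyunsaturated chains, fell from 0.962, 1.09 and 1.41 CPM to 0.256, 0.173 and 0.347 CPM (-2.12 ± 0.43, adjusted p = 0.0253). The call of Aacs was lost without any 1 library (0.0664 to 0.261), that of Pcyt2 without control 2 or 3 or Remodelin 2 or 3 (0.0873 to 0.19), and that of Mfsd2a without any library but control 1 (0.0631 to 0.127). None of the 14 tested LXR target and cholesterol efflux genes was called by edgeR or DESeq2, with 2 at an unadjusted p under 0.05, while leaving out both control 1 and Remodelin 1 gave 2 calls higher and 1 lower; the efflux pump gene Abca1 was at 86.7, 47.9 and 42.9 CPM against 37.99, 71.3 and 85.2 CPM (0.13 ± 0.29), with control 1 and Remodelin 1 in the place of the other group.

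The genes called higher held several that the ATF4 pathway is known to control. In the 300 bases around the transcription start taken from RefSeq (GRCm38.p6, 250 before and 50 after), 7 of the 18 genes called higher that had an entry carried the amino acid response element TGATGNAA, read on both strands (TTNCATCA on the other), against 2.78% of the 9920 tested genes with an entry and 2 of the 67 called lower. A match describes these letters and is not evidence of binding. The 7 genes are shown because they include the amino acid genes described next; the window is 30 bases on the gene's strand, with the element in capitals.
Asns, chr6:7693214-7693243, minus strand: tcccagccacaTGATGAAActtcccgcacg
Pck2, chr14:55540152-55540181, plus strand: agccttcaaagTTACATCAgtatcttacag
Trib3, chr2:152344028-152344057, minus strand: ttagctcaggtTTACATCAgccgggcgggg
Chac1, chr2:119351038-119351067, plus strand: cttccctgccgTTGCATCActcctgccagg
Slc7a11 upstream, chr3:50443661-50443690, minus strand: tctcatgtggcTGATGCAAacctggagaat
Slc7a11 downstream, chr3:50443642-50443671, minus strand: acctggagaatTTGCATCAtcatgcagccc
Smim26, chr2:144593942-144593971, plus strand: tatggtctcctTGATGAAAatcttcgtcct
Nupr1, chr7:126625562-126625591, minus strand: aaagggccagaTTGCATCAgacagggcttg
The elements began 23 to 193 bases before the start, except in Trib3, where the element began 15 bases after it. Slc7a11 carried 2 elements on opposite strands, 66 and 47 bases before its start. By list, the element was in 5 of 18 integrated stress response regulators with an entry, among them Trib3, Chac1 and Nupr1 shown above. It was in 3 of 13 amino acid transporters with an entry, of which only Slc7a11 was called. It was also in 5 of 13 cytosolic tRNA synthetases with an entry, none of which was called. For comparison, the sterol regulatory element TCACCCCAC was in 1 of 18 cholesterol genes with an entry and in 0.675% of all.

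Amino acid synthesis genes came first in this group by size of p. Mthfd2, the mitochondrial folate enzyme, was at 64.0, 62.5 and 69.3 CPM in control and 119, 116 and 110 CPM with Remodelin (0.81 ± 0.13, adjusted p = 0.00776). Asparagine synthetase Asns was at 39.7, 49.2 and 49.4 CPM against 90.6, 76.3 and 80.0 CPM (0.84 ± 0.15, adjusted p = 0.0121). These were the 2 called of 13 genes of serine, one-carbon, asparagine and proline synthesis, with 9 positive, a median of 0.50 and a median of 0.21 without both control 1 and Remodelin 1. Psat1, of serine synthesis (0.55 ± 0.14, adjusted p = 0.0685), and Aldh1l2, of mitochondrial folate metabolism (1.26 ± 0.31, adjusted p = 0.0663), had groups that did not overlap but were not called. Pck2, the mitochondrial phosphoenolpyruvate carboxykinase, was at 50.5, 65.5 and 60.8 CPM against 119, 105 and 92.6 CPM (0.84 ± 0.16, adjusted p = 0.0182). All 3 called genes rose by nearly the same factor. Without control 2, Mthfd2 (0.063) and Asns (0.064) lost their calls, and Pck2 lost its own without any 1 control library or Remodelin 2 (0.0648 to 0.0737).

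Of 19 regulators of the integrated stress response, 4 rose and 0 fell, with a median of 0.27, and 0.51 without both control 1 and Remodelin 1. Trib3, a pseudokinase that feeds back on ATF4, was at 16.9, 21.0 and 19.7 CPM in control and 35.2, 36.4 and 29.0 CPM with Remodelin (0.80 ± 0.17, adjusted p = 0.0309). Chac1, which breaks down glutathione, was at 5.16, 5.97 and 5.65 CPM against 14.2, 9.80 and 10.0 CPM (1.01 ± 0.21, adjusted p = 0.0322). Nupr1, a stress-induced chromatin protein, was at 6.68, 7.71 and 11.6 CPM against 22.2, 16.03 and 16.6 CPM (1.08 ± 0.24, adjusted p = 0.0424), and the stress cytokine gene Gdf15 at 65.8, 72.1 and 80.7 CPM against 133, 111 and 107 CPM (0.68 ± 0.15, adjusted p = 0.0328). In Chac1, Nupr1 and Gdf15 the highest library was Remodelin 1. Ddit3, which encodes CHOP, stood at 23.03, 17.7 and 24.1 CPM against 54.1, 31.1 and 32.9 CPM (0.87 ± 0.23, adjusted p = 0.0878), Sesn2 at 0.63 ± 0.17 (adjusted p = 0.0966) and Atf4 itself at 312, 375 and 376 CPM against 538, 403 and 432 CPM (0.37 ± 0.15, adjusted p = 0.306). The calls in this group were fragile: leaving out any 1 library ended those of Trib3 (0.051 to 0.127), Chac1 (0.0567 to 0.121) and Gdf15 (0.0602 to 0.151), and any library but control 3 that of Nupr1 (0.0769 to 0.226). Without both control 1 and Remodelin 1, Trib3, Chac1 and Gdf15 were called at 0.68, 0.77 and 0.51, and Nupr1 stood at 0.76 (adjusted p = 0.0659).

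The stress lists given next had no calls by edgeR. Among all genes tested, 12.7% had an unadjusted p under 0.05 and 13.6% were called without both control 1 and Remodelin 1. None of 19 folding genes of the endoplasmic reticulum passed the test with edgeR or DESeq2, with 1 at an unadjusted p under 0.05, and their median was -0.07 (0.00 without both control 1 and Remodelin 1, with 1 lower); the chaperone gene Hspa5 was at 400, 363 and 334 CPM against 289, 373 and 399 CPM (-0.05 ± 0.18). Heat shock proteins had 0 of 11 called by either tool, 0 at an unadjusted p under 0.05 and a median of -0.03 (0.09 without both, with 1 higher). Cytosolic tRNA synthetases had 0 of 20 called by either tool, 3 at an unadjusted p under 0.05, 15 positive and a median of 0.20 (0.13 without both, with 2 higher and 1 lower). Mitochondrial chaperones and proteases had 0 of 10 called by edgeR and 1 by DESeq2, with a median of 0.13 (0.07 without both, with 1 higher and 1 lower) and Hspa9, the mitochondrial HSP70, at 0.54 ± 0.15 (adjusted p = 0.126).

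Genes of cysteine import and glutathione supply rose beside them. Slc7a11, the cystine importer and 1 of 18 amino acid transporters called, was at 7.04, 6.52 and 4.78 CPM in control and 8.52, 14.5 and 16.8 CPM with Remodelin (1.12 ± 0.24, adjusted p = 0.0328). Remodelin 1 was the treated library closest to control, and without both control 1 and Remodelin 1 the difference was 1.47. Cth, which makes cysteine from cystathionine, was at 1.06, 1.52 and 1.63 CPM against 4.04, 3.00 and 4.28 CPM (1.42 ± 0.31, adjusted p = 0.0393). Gclm, the modifier subunit of the enzyme that begins glutathione synthesis, was at 38.5, 34.4 and 38.3 CPM against 62.6, 63.1 and 73.7 CPM (0.84 ± 0.15, adjusted p = 0.0109). The glutathione transferase gene Gsta3 was at 1.57, 2.01 and 3.20 CPM against 6.92, 5.998 and 6.88 CPM (1.55 ± 0.29, adjusted p = 0.0163), and was the 1 gene called of 20 transferases and peroxidases. The median of those 20 was 0.13, and turned to -0.26 without both control 1 and Remodelin 1. Gclm and Slc7a11 were the 2 called of 19 target genes of the transcription factor NRF2, of which 17 were positive with a median of 0.15 (0.09 without both control 1 and Remodelin 1). The catalytic partner Gclc stood at 0.47 ± 0.19 (adjusted p = 0.313), Hmox1 at 0.15 ± 0.13, Nqo1 at -0.10 ± 0.26 and Nfe2l2, which encodes NRF2, at 0.00 ± 0.16. Leaving out any 1 library ended the call of Cth (0.0599 to 0.144), control 2 or 3 or Remodelin 2 or 3 that of Slc7a11 (0.125 to 0.151), control 2 or Remodelin 3 that of Gclm (0.0844 and 0.0567), and control 1, control 2, Remodelin 2 or Remodelin 3 that of Gsta3 (0.0512 to 0.118).

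**Figure D3:**
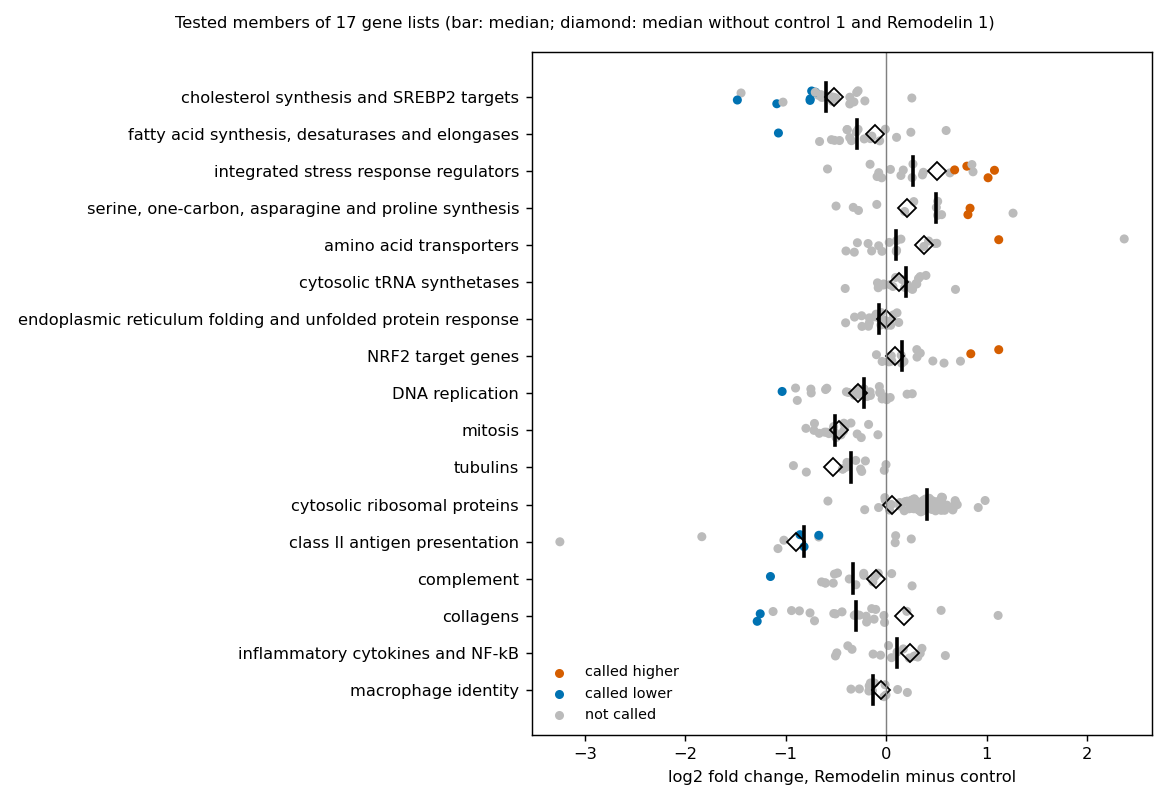
Log2 fold change (Remodelin minus control) of each tested member of 17 gene lists, coloured by whether the gene was called higher (orange), lower (blue) or neither (grey); bars are list medians and diamonds the medians without control 1 and Remodelin 1. Cholesterol genes have a bar at -0.60 and a diamond at -0.52, while the bar of ribosomal protein genes at 0.40 has its diamond at 0.06.

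Genes that restrain growth and nutrient uptake moved in both directions. Besides Txnip, the mTOR inhibitor gene Ddit4l fell, from 4.40, 4.18 and 3.37 CPM in control to 1.79, 1.33 and 1.56 CPM with Remodelin (-1.35 ± 0.26, adjusted p = 0.0161). These were the 2 called of 15 arrestin-domain and mTOR brake genes. Its relative Ddit4 stood at 9.47, 10.9 and 9.50 CPM against 11.9, 10.6 and 9.02 CPM (0.07 ± 0.19), and the arrestin-domain relatives of Txnip, Arrdc4 and Arrdc3, at -0.55 ± 0.15 (adjusted p = 0.0987) and 1.06 ± 0.26 (adjusted p = 0.0663). Of 10 CDK inhibitors and D cyclins, 1 rose and 1 fell. Cdkn1c, which encodes p57, was at 745, 877 and 894 CPM against 489, 452 and 402 CPM (-0.90 ± 0.15, adjusted p = 0.00835), and Cdkn1a, which encodes p21, at 80.3, 98.3 and 88.7 CPM against 142, 142 and 126 CPM (0.62 ± 0.14, adjusted p = 0.0457). The 2 inhibitors of the same family thus changed in opposite directions in these libraries. Cdkn1a was also the 1 gene called of 14 p53 targets. The call of Cdkn1c was lost without control 2 (0.0509), that of Ddit4l without control 2, Remodelin 2 or Remodelin 3 (0.0631 to 0.0889), and that of Cdkn1a without any 1 library (0.0767 to 0.153).

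Proliferation genes leaned low. All 20 mitosis genes had a negative sign, with a median of -0.50 (-0.47 without both control 1 and Remodelin 1), against 51.5% of all genes with a positive one. None of the 20 was called by edgeR; 1 was called by DESeq2 and 10 had an unadjusted p under 0.05. The list deviated by 0.21 to 0.41 in the control libraries and by -0.36 to -0.18 in the Remodelin libraries. The cyclin gene Ccnb2 was at 9.16, 11.2 and 9.61 CPM against 6.60, 4.67 and 5.95 CPM (-0.80 ± 0.20, adjusted p = 0.0754). Outside the list, the anaphase activator gene Cdc20 fell, from 17.4, 19.3 and 17.4 CPM to 9.93, 10.2 and 8.84 CPM (-0.90 ± 0.17, adjusted p = 0.016). Of 27 DNA replication genes 1 fell, the helicase subunit Mcm5, at 34.0, 52.1 and 37.5 CPM against 20.6, 19.4 and 20.2 CPM (-1.04 ± 0.18, adjusted p = 0.0103). The list median was -0.22, and -0.28 without both. All 12 tubulin genes had a negative sign, with a median of -0.35, 0 called by edgeR, 2 by DESeq2 and 6 at an unadjusted p under 0.05; without both control 1 and Remodelin 1 the median was -0.53 and 8 were called. Tuba1a was at 100, 158 and 119 CPM against 91.4, 68.1 and 58.0 CPM (-0.80 ± 0.18, adjusted p = 0.0517). Tubulin genes have close copies among which reads could be divided. Mcm5 lost its call without control 2 or Remodelin 2 (0.0743 and 0.0545), and Cdc20 without control 2, Remodelin 2 or Remodelin 3 (0.0571 to 0.0989).

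Vegfa, the main ligand of blood vessel growth, rose from 18.9, 18.7 and 17.05 CPM to 30.8, 41.5 and 41.0 CPM (1.05 ± 0.17, adjusted p = 0.00715). Per length it was at 4.21 ± 0.21 FPKM (fragments scaled by transcript length and depth; SD, n = 3) in control and 8.90 ± 1.19 FPKM with Remodelin. It remained below its relative Vegfb, at 40.5 ± 2.58 and 33.2 ± 1.33 FPKM (log2 fold change -0.32 ± 0.14, adjusted p = 0.353). Of 19 hypoxia-inducible genes Vegfa was the 1 called, with a list median of 0.07 (0.16 without both control 1 and Remodelin 1). Of 8 ligands and receptors of its family it was also the 1 called, with a median of -0.23 that turned to 0.11 without both. Egln3, another hypoxia-inducible gene, stood at -0.51 ± 0.16 (adjusted p = 0.169) and Bnip3 at 0.73 ± 0.24 (adjusted p = 0.19). Glycolysis genes had 0 of 19 called by edgeR or DESeq2, 2 at an unadjusted p under 0.05 and a median of -0.10, against -0.12 and 3 lower without both.

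In mitochondria, 1 subunit isoform stood out. Cox6a2, the muscle-type form of cytochrome c oxidase subunit 6a, was at 3.39, 2.71 and 2.50 CPM in control and 16.1, 9.63 and 10.5 CPM with Remodelin (2.07 ± 0.24, adjusted p = 0.000502), the 1 gene called of 14 oxidase subunits. It was the largest rise among the called protein-coding genes. The widely expressed isoform Cox6a1 remained far more abundant per length, at 695 ± 146 FPKM in control and 707 ± 195 FPKM with Remodelin (log2 fold change -0.01 ± 0.18), against 4.18 ± 0.64 and 18.1 ± 5.83 FPKM for Cox6a2. The oxidase list median was 0.24, and -0.05 without both control 1 and Remodelin 1. Subunits of complexes I, II, III and V had 0 of 63 called by edgeR or DESeq2 and a median of 0.07, which was -0.23 without both. Of the 63, 5 had an unadjusted p under 0.05, against 12.7% of all genes tested.

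The mitochondrial tRNA for proline, mt-Tp, rose from 9.11, 5.54 and 3.69 CPM to 30.6, 33.0 and 36.4 CPM (2.44 ± 0.32, adjusted p = 0.00112). Its gene lies on the minus strand of the mitochondrial genome, and its sequence of 67 bases is shown because it carries the 1 difference that changed with IFN-γ; the anticodon is in capitals (GRCm38, GENCODE M21).
mt-Tp, chrM:15356-15422: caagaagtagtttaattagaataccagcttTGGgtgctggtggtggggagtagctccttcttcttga
It was the 1 gene called of 11 tested mitochondrial tRNA and rRNA genes, whose median was -0.05 (-0.31 without both control 1 and Remodelin 1). The leucine tRNA mt-Tl1 and the tyrosine tRNA mt-Ty stood at -1.34 ± 0.86 and 0.60 ± 0.51, and the ribosomal RNA mt-Rnr1 at 0.28 ± 0.24. Of 12 tested mitochondrially encoded protein genes 0 were called by edgeR or DESeq2 and 0 had an unadjusted p under 0.05. All 13 genes of the list summed to 3980, 6731 and 3215 CPM in control and 4377, 4748 and 5906 CPM with Remodelin, so the groups overlapped. Whether counting used strand is not stated, so reads of mt-Tp and of a transcript antisense to it cannot be told apart.

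The ribosomal protein values were set mostly by control 1 and Remodelin 1. Of 77 tested, 72 were positive with a median of 0.40, yet edgeR called 0, DESeq2 called 5 and 35 had an unadjusted p under 0.05. All 79 genes of the list summed to 60292, 78918 and 79910 CPM in control and 123319, 85168 and 80456 CPM with Remodelin, so Remodelin 1 was highest and control 1 lowest. The median was 0.29 without control 1, 0.18 without Remodelin 1 and 0.06 without both. Of the 26 genes called higher, 5 were processed pseudogenes, among them Rps12-ps3 and Rpl36a-ps2 of ribosomal protein genes. Rps12-ps3 was at 180, 188 and 215 CPM against 551, 404 and 255 CPM (1.05 ± 0.24, adjusted p = 0.0479), and was not called without both (adjusted p = 0.0767). Such copies share reads with their parent genes and are uncertain. Rps12-ps3 also lost its call without any 1 library but Remodelin 3 (0.0935 to 0.224), and Rpl36a-ps2 (0.72 ± 0.15, adjusted p = 0.0322) without any but Remodelin 2 (0.0631 to 0.159).

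The enzyme that Remodelin is known to inhibit did not differ in its own RNA beyond the spread. Nat10 was at 18.4, 19.9 and 16.02 CPM in control and 16.5, 22.5 and 14.2 CPM with Remodelin (-0.03 ± 0.21, adjusted p = 0.96), and its tRNA-acetylation partner Thumpd1 at 0.06 ± 0.19. RNA level does not measure the activity of the enzyme or the mark itself. None of 13 RNA acetylation and tRNA modification genes was called by edgeR or DESeq2, with 2 at an unadjusted p under 0.05. Among 30 nucleolar and ribosome biogenesis factors edgeR called 0 and DESeq2 called 1, 3 had an unadjusted p under 0.05, and the median was 0.02 (0.07 without both control 1 and Remodelin 1, with 5 higher and 1 lower). Of all genes, 12.7% had an unadjusted p under 0.05 and 13.6% were called without both.

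The libraries carried the defining genes of macrophages. All 12 macrophage identity genes were tested and 0 were called by edgeR or DESeq2, with 1 at an unadjusted p under 0.05 and a median of -0.13 (-0.05 without both control 1 and Remodelin 1, with 2 lower). Their sum was 16888, 24978 and 23332 CPM in control and 26382, 16022 and 17934 CPM with Remodelin, with lysozyme Lyz2 not called (-0.12 ± 0.24). The receptor gene Csf1r was at 215, 208 and 185 CPM against 166, 204 and 175 CPM (-0.16 ± 0.17), and Adgre1, which encodes F4/80, at 160, 171 and 159 CPM against 172, 178 and 180 CPM (0.11 ± 0.12). Of the genes of large peritoneal macrophages, Gata6 was at 13.9 to 19.5 CPM in control and 9.54 to 17.3 CPM with Remodelin, while Timd4, which defines long-lived resident cells, had 3 reads in the 6 libraries. None of that list's 16 tested genes was called by either tool, with 2 at an unadjusted p under 0.05.

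Most genes of macrophage activation were not called. Of 12 alternative activation genes Chil1 was the 1 called; its relative Chil3 stood at 0.45 ± 0.37, Arg1 at 9.67, 12.6 and 14.0 CPM against 15.2, 13.1 and 15.2 CPM (0.26 ± 0.19, adjusted p = 0.552) and the mannose receptor gene Mrc1 at 113, 75.2 and 67.6 CPM against 63.2, 105 and 119 CPM (0.16 ± 0.22). In Mrc1, control 1 and Remodelin 1 again took the place of the other group, and without both the difference was 0.64 (adjusted p = 0.0194). Of 15 genes of suppressive, tumour-associated macrophages Vegfa was called higher and the gelatinase Mmp9 lower. Cd274, which encodes PD-L1, stood at 47.99, 39.0 and 41.0 CPM against 39.7, 51.6 and 54.5 CPM (0.19 ± 0.16, adjusted p = 0.624), and Tgfb1 at -0.23 ± 0.17. Il10 had 43 reads over the 6 libraries, Il1b 11, Il6 3 and Nos2 0, and none of these was tested. Inflammatory cytokine and NF-κB genes had 0 of 17 called by edgeR or DESeq2 and 5 at an unadjusted p under 0.05 (median 0.11, and 0.24 without both). The groups did not overlap for 8 of these 17 (47.1%), against 16.4% of all genes tested, with 11 of the 17 positive and 6 negative. Tnf, whose groups overlapped, was at 5.52, 5.92 and 4.62 CPM against 5.57, 4.56 and 5.32 CPM (-0.06 ± 0.19).

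A few immune genes fell. The chemokine gene Cxcl10, known as an interferon target, was at 2.68, 2.55 and 2.23 CPM in control and 1.22, 0.519 and 0.520 CPM with Remodelin (-1.73 ± 0.36, adjusted p = 0.032), the 1 called of 22 chemokines and receptors. None of 21 antiviral interferon-stimulated genes was called by either tool, with 3 at an unadjusted p under 0.05 and a median of 0.08 (-0.13 without both control 1 and Remodelin 1). Class II presentation had 3 of 11 genes lower, with a median of -0.82 (-0.90 without both control 1 and Remodelin 1). H2-Ab1, a class II beta chain, was at 51.2, 75.1 and 69.8 CPM against 41.6, 34.5 and 32.02 CPM (-0.86 ± 0.17, adjusted p = 0.018), and H2-Eb1, another, at 44.4, 49.5 and 48.5 CPM against 32.03, 25.8 and 22.9 CPM (-0.82 ± 0.16, adjusted p = 0.0161). The invariant chain gene Cd74 was at 95.5, 98.4 and 93.0 CPM against 59.1, 65.5 and 55.6 CPM (-0.67 ± 0.13, adjusted p = 0.0229). The transactivator gene of class II, Ciita, stood at 2.43, 1.74 and 1.63 CPM against 0.512, 0.634 and 0.462 CPM (-1.84 ± 0.48, adjusted p = 0.0863), with no overlap. B cells also express these genes, and the sum of their 8 markers was lower in the same libraries, at 20.2, 25.8 and 24.8 CPM in control and 15.8, 12.7 and 14.97 CPM with Remodelin. Of 6 tested, 5 were negative, 1 positive, 3 had groups that did not overlap and 1 was called. Over all genes tested, 51.5% were positive and 16.4% had groups that did not overlap. That 1 was the immunoglobulin heavy chain gene Ighm (10.4, 13.8 and 12.6 CPM against 7.05, 5.13 and 6.65 CPM, -0.97 ± 0.20, adjusted p = 0.0256). Ighm made up a large part of the sum. The groups overlapped for Cd79a (1.57, 2.01 and 1.79 CPM against 1.41, 1.79 and 1.16 CPM) and for Cd79b, and Ms4a1 was the positive one. The part of B cells in the class II values was not tested. Class I genes had 0 of 18 called by either tool, with 1 at an unadjusted p under 0.05, and 4 were lower without both control 1 and Remodelin 1. Leaving out control 2, control 3, Remodelin 2 or Remodelin 3 ended the calls of H2-Ab1 (0.084 to 0.126), H2-Eb1 (0.0723 to 0.0997), Cd74 (0.0571 to 0.121), Ighm (0.0745 to 0.149) and Cxcl10 (0.0718 to 0.135), and control 1 also that of Cxcl10 (0.0664).

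Of 16 complement genes 1 fell, Serping1, the inhibitor of the C1 protease, at 9.47, 9.83 and 9.77 CPM against 4.23, 4.96 and 3.87 CPM (-1.15 ± 0.19, adjusted p = 0.00979). Its 3 control libraries were almost identical. The subunit genes C1qa and C1qc stood at -0.60 ± 0.17 (adjusted p = 0.108) and -0.53 ± 0.14 (adjusted p = 0.109), both with groups that did not overlap. The list median was -0.33, and -0.10 without both control 1 and Remodelin 1. Serping1 lost its call without control 2 (0.0509) or Remodelin 3 (0.0519).

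Matrix genes were lower in part. Of 23 collagen genes 2 fell. Col3a1, of fibrillar collagen, was at 76.3, 53.9 and 47.9 CPM in control and 19.99, 28.8 and 25.8 CPM with Remodelin (-1.25 ± 0.24, adjusted p = 0.0161), and Col6a1, of beaded filaments, at 88.2, 71.4 and 57.1 CPM against 22.9, 38.1 and 27.9 CPM (-1.28 ± 0.27, adjusted p = 0.0328). Control 1 was highest and Remodelin 1 lowest in both, and without both the differences were -0.90 and -0.96, with adjusted p of 0.0321 and 0.0562. The collagen median was -0.30 and turned to 0.18 without both. The matrix genes Fmod and Pcolce were also called lower, Fmod at 5.57, 4.51 and 4.56 CPM against 1.35, 2.25 and 1.62 CPM (-1.48 ± 0.26, adjusted p = 0.0109), and Pcolce, which encodes a procollagen protease enhancer, at 19.2, 15.8 and 17.1 CPM against 7.49, 9.40 and 8.03 CPM (-1.06 ± 0.19, adjusted p = 0.0109). Fibroblast markers, 6 in all, summed to 696, 493 and 430 CPM in control and 297, 498 and 525 CPM with Remodelin, so the groups overlapped, and Col1a1 stood at 195, 110 and 98.5 CPM against 54.5, 127 and 142 CPM. The part of fibroblasts in the falls of matrix genes was not tested. Without any 1 of control 1, control 2 and Remodelin 3, Col3a1 lost its call (0.0533 to 0.0669); Col6a1 lost it without any library but control 3 (0.0512 to 0.121), Fmod without control 2 or Remodelin 3 (0.05 and 0.0559) and Pcolce without Remodelin 3 (0.0555).

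Proteases and growth factor carriers followed. Mmp8, the neutrophil collagenase, was at 7.85, 9.94 and 7.66 CPM in control and 3.14, 3.00 and 3.47 CPM with Remodelin (-1.40 ± 0.26, adjusted p = 0.0161), and Mmp9 at 25.7, 23.7 and 16.6 CPM against 8.07, 11.1 and 9.65 CPM (-1.19 ± 0.23, adjusted p = 0.0201). These were the 2 called of 16 metalloproteinases and TIMPs. Mmp12, the macrophage elastase, stood at 0.32 ± 0.23 and Mmp13 at 1.07 ± 0.33 (adjusted p = 0.164). The sum of the 9 neutrophil markers was 25.2, 33.3 and 33.1 CPM against 25.8, 18.6 and 20.7 CPM, and Ly6g, which defines that cell, had 1 read in the 6 libraries. The 3 genes of insulin-like growth factor binding proteins that fell were Igfbp2 (2.53, 2.88 and 2.12 CPM against 0.961, 0.577 and 0.694 CPM, -1.75 ± 0.34, adjusted p = 0.018), Igfbp3 (37.97, 29.4 and 30.1 CPM against 14.2, 19.8 and 16.5 CPM, -0.95 ± 0.17, adjusted p = 0.0109) and Igfbp4 (191, 213 and 201 CPM against 125, 130 and 117 CPM, -0.70 ± 0.14, adjusted p = 0.0239). Of 19 serpins, Serpina3g and Serping1 were called lower. Calls were lost without control 2, Remodelin 2 or Remodelin 3 for Mmp8 (0.0555 to 0.108) and Igfbp2 (0.0791 to 0.11), without any library but control 3 for Mmp9 (0.0554 to 0.115), without Remodelin 3 for Igfbp3 (0.0555), and without control 2 or 3 or Remodelin 2 or 3 for Igfbp4 (0.0768 to 0.126).

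Mesothelial markers split. Of 8 tested, 2 fell, Upk3b and Upk1b (14.8, 16.1 and 12.9 CPM against 7.17, 8.94 and 7.74 CPM, -0.87 ± 0.18, adjusted p = 0.0256). The 9 markers summed to 112, 125 and 101 CPM in control and 52.9, 66.6 and 60.7 CPM with Remodelin, with no overlap. Upk3b made up a large part of that sum. Lrrn4 stood at 25.3, 15.9 and 17.5 CPM against 8.58, 15.3 and 14.2 CPM, with no overlap, and was not called. Wt1, a transcription factor of mesothelium, stood at 19.2, 13.8 and 16.5 CPM against 8.58, 14.1 and 15.8 CPM (-0.36 ± 0.22, adjusted p = 0.493), Krt8 at 0.35 ± 0.23, Krt18 at 1.03 ± 0.29 (adjusted p = 0.117), Krt19 at -0.92 ± 0.30 (adjusted p = 0.179) and Msln at 0.47 ± 0.42. The list median was -0.49, and -0.10 without both control 1 and Remodelin 1. Outside the list, Krt7 (-1.21 ± 0.27, adjusted p = 0.0446), Rspo1 (-1.27 ± 0.23, adjusted p = 0.0121) and Gata5 (-0.94 ± 0.21, adjusted p = 0.0464), which mesothelium is known to express, were called lower. They were picked from the genes already called lower, so their direction says nothing further about mesothelial markers as a set. The part of mesothelial cells in these falls was not tested. The calls were lost without control 2 and Remodelin 2 or 3 alike for Krt7, Rspo1, Gata5 and Upk1b (0.051 to 0.264), without control 3 for Krt7 and Gata5 (0.151 and 0.0798), and without control 1 or Remodelin 1 for Upk1b (0.0533 and 0.0671) and Gata5 (0.0588 and 0.081). Mast cell markers summed to 4.02 to 4.76 CPM in control and 1.91 to 3.11 CPM with Remodelin, with the receptor gene Ms4a2 at 0 reads. Reads of the T cell gene Cd3e and the eosinophil gene Epx were 0, and globin reads were found mainly in control 2 (red cell markers 14.8 CPM).

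**Figure D4:**
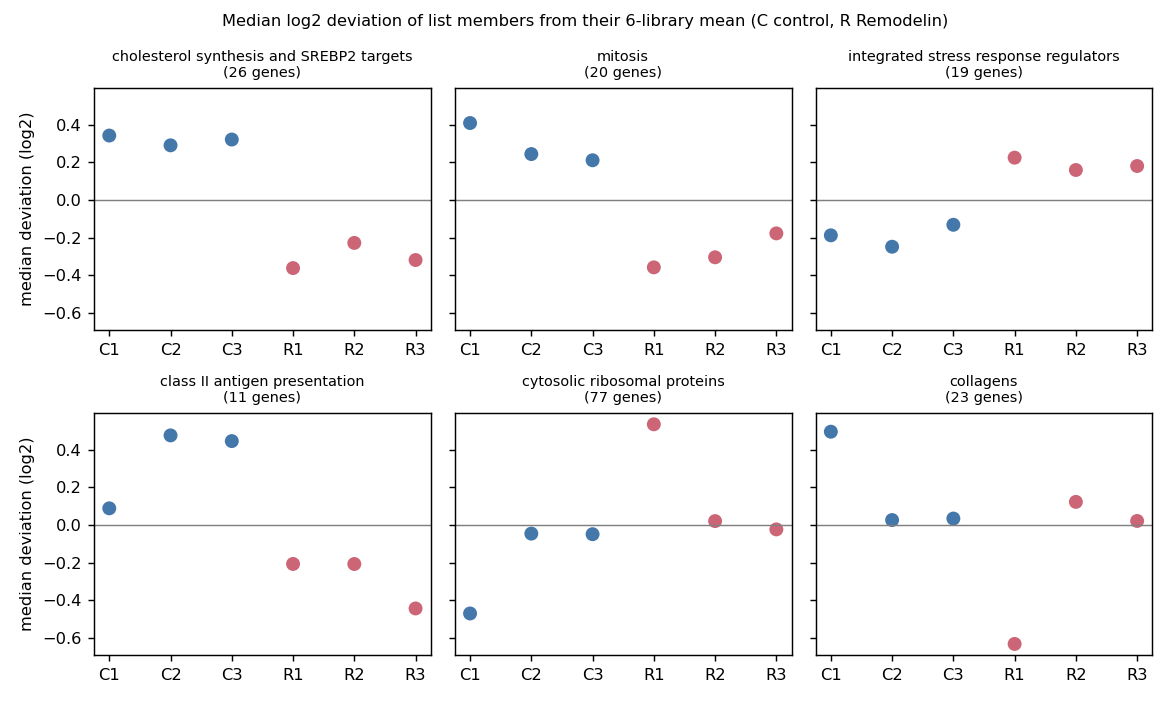
Median log2 deviation of list members from their mean over the 6 libraries, for 6 lists and each library (C control, R Remodelin). Cholesterol, mitosis and integrated stress response genes part the groups with control 1 (C1) and Remodelin 1 (R1) in place, while ribosomal protein and collagen genes are set by C1 and R1.

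The same treatment in the presence of IFN-γ was measured in libraries that this comparison does not share. There, 0.364% of genes were called. Of the 114 genes, which were chosen by their difference without IFN-γ, 113 had the same sign with IFN-γ. The share of all tested genes with the same sign in both settings was not counted, so this number has no background beside it. Cox6a2 was at 1.57 ± 0.24 with IFN-γ, Vegfa at 1.07 ± 0.17 and Txnip at -1.03 ± 0.13. The test of the difference between the 2 settings called 1 of 13474 genes (0.00742%), mt-Tp, and 310 genes had an unadjusted p under 0.05. For mt-Tp the CPM were 49.5, 62.6 and 55.4 with IFN-γ alone and 38.8, 59.97 and 21.3 with both agents, a difference of -0.48 ± 0.30. Control libraries were low, and all 9 treated libraries were above 20 CPM. The difference between the 2 settings was -2.92 ± 0.44 (adjusted p = 0.0481), and it was lost without any 1 of control 2, control 3, the 3 IFN-γ libraries, Remodelin 2, Remodelin 3 and the first library with both agents. For Gas1 (0.74 ± 0.23) and Igfbp3 (0.83 ± 0.23), which stood at -0.44 ± 0.16 and -0.12 ± 0.17 with IFN-γ, the difference between settings had unadjusted p of 0.0043 and 0.00238 and adjusted p of 1.

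**Figure D5:**
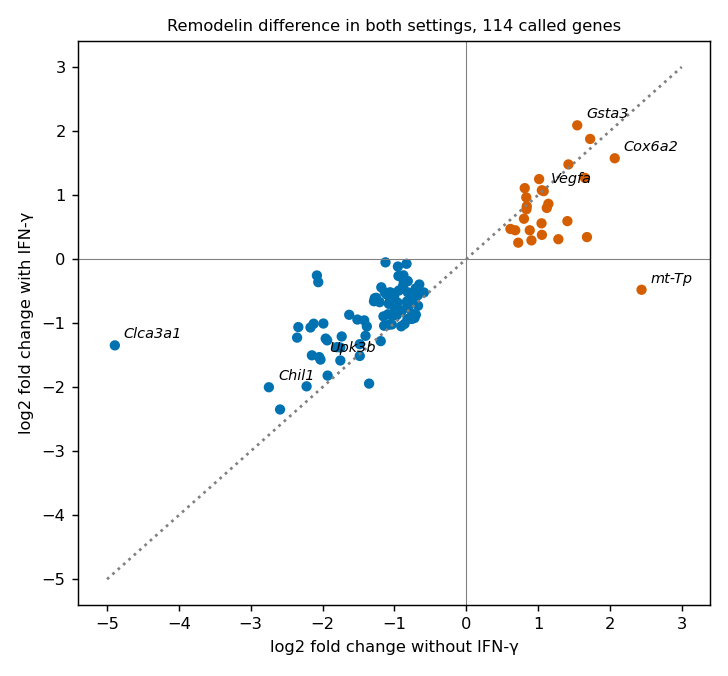
Log2 fold change of Remodelin with IFN-γ (vertical) against without it (horizontal) for the 114 genes called without IFN-γ, higher in orange and lower in blue; the dotted line marks equal values. All but mt-Tp lie in the quadrants of equal sign; Clca3a1, at the far left, rests on 2 reads in the Remodelin libraries.

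In the authors' deposited table of this comparison, 129 genes had an adjusted p under 0.05, 40 higher and 89 lower. Of these, 99 were among the 114 called here, 86.8% of the 114 and 76.7% of the authors' 129, and all 99 had the same sign.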

How the data were processed

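Per the file headers, raw read counts per gene were deposited, 1 column for each library. It also holds FPKM values, which the authors scaled by gene length and depth. Per the file headers, the authors added a log2 fold change with its p-value for each comparison, with no tool named. The submitters' processing notes name CASAVA 1.8, HISAT2 2.0.5 and featureCounts 1.5.0-p3. The sources used here give neither the genome build nor the strand setting of the counting.

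The counts of all 12 libraries were fitted together by group with edgeR 4.0.16 (R 4.3.3, limma 3.58.1), after filtering by expression and TMM scaling. The quasi-likelihood test gave every p, adjusted by Benjamini-Hochberg over 13474 genes; errors are SE. DESeq2 1.42.0, voom, other scaling and filters, removal of GC and length trends, a replicate block and left-out libraries were the alternatives. The fit was tested on simulated data for 13474 genes, 200 of them changed: it called 7.46% of 1.5-fold, 56.7% of 2-fold and 92.4% of 4-fold changes, with 9 false among 113 calls. The simulated counts were drawn for each gene separately, without the length and GC trends that these libraries share. The rates therefore describe a simpler setting than these data.

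Named genes were the most extreme calls, up to 4 members of each list by p, calls kept without each library, and fixed genes; others, such as Cth, Mvd, Lss, Hmgcs1, Cdc20, the Igfbp genes, Mfsd2a and Clca3a1, were named after their values were seen. Some members counted in the lists are not reported here by name. The members and lists were chosen with earlier results of these data known.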

Additional observations from a re-analysis of the deposited data

Results flagged for a closer look

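The mitochondrial proline tRNA gene mt-Tp was the 1 gene whose Remodelin difference changed with IFN-γ by a test of that change (-2.92 ± 0.44 on the log2 scale, adjusted p = 0.0481 by edgeR's quasi-likelihood test). Without IFN-γ it was higher with Remodelin in 3 of 3 libraries, while with IFN-γ the libraries with both agents lay at 21.3 to 59.97 CPM around those with IFN-γ alone at 49.5 to 62.6 CPM. The call was lost in 8 of the 12 fits that left out 1 library.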

How the results depend on the processing

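Against 114 calls, DESeq2 called 242 genes; edgeR called 283 when low counts were not filtered, 22 in the fit of control and Remodelin libraries alone, 189 with the GC trend removed, 408 with GC and length trends removed and 1853 without both control 1 and Remodelin 1. It ranged from 20 to 121 when 1 library was left out. The 1 call for the change with IFN-γ became 19 with no filter and 0 to 1 when 1 library was left out. With a replicate block 58 genes were called. Libraries sharing a number did not deviate together (correlations -0.547, -0.105 and -0.301). Control 1 and Remodelin 1 also had opposite length trends, so these values cannot tell whether the numbers pair libraries. Of the 46 called and 207 uncalled genes named by rule, 0 changed direction with a call in the main or the alternative fit. Other genes were not checked for this across all settings, and some list medians turned sign. Causes were not tested. With 3 libraries a group and a biological coefficient of variation of 18.6%, changes under 2-fold were mostly below what the fit could call.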
